A study of Mus musculus with 14 samples.

Results

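The 5 control lists of 81K1 mouse embryonic stem cells (ESC) were analysed together, one each for Smarca4, Ezh2, H3K27me3, H3K27ac and H3K4me3. They are the lists labelled as control, 5 of the 10 lists in a series of 14 samples, and hold 173852 regions on the 21 chromosomes used (1 to 19, X and Y). 81K1 is 1 clone (K1) of the OG2 line that carries a doxycycline-inducible shRNA against Smarcb1 in the Rosa26 locus, so that all control libraries carry the cassette too. The control cells received no doxycycline and grew on gelatine in medium with serum and leukaemia-inhibitory factor. There was 1 library per antibody, without replicates. No test was therefore possible, and all intervals cover counting error alone. By the study's methods a company did the ChIP-seq of Smarca4 and H3K27me3, and the authors' laboratory that of Ezh2, H3K27ac and H3K4me3, so that laboratory and antibody cannot be told apart. Read numbers are not part of the lists, so that the reads behind each list could not be counted.

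Smarca4 (Brg1) is the ATPase of the BAF complex of ESC (esBAF), which uses ATP to move and evict nucleosomes. Ezh2 is the catalytic subunit of Polycomb Repressive Complex 2 (PRC2) and trimethylates lysine 27 of histone H3 (H3K27me3), a mark of repressed genes. The same lysine can be acetylated instead (H3K27ac), which is found at active promoters and enhancers. Trimethylation of lysine 4 (H3K4me3) marks promoters. In ESC many developmental genes carry H3K4me3 together with H3K27me3 at CpG-rich promoters, a state called bivalent.

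The 5 stretches of sequence given here show the range of DNA that the lists covered. They are given on GRCm38.p6, 5′ to 3′, with each CpG in capitals. Promoters are RefSeq sequences read on the strand of the gene and end at most 30 bases into the annotated transcript, and the peak centre is read on the plus strand. Pou5f1 stands for promoters with Smarca4, H3K27ac and H3K4me3, although it was poorer in CpG than most of them. The shown stretch is chr17:35505782-35506047, plus strand. Pax6 stands for promoters with Smarca4, Ezh2 and H3K27me3 (chr2:105668646-105668929, plus strand), and its stretch also lies within the antisense gene Pax6os1. Cables2 had the highest Smarca4 score of all promoters with Smarca4 and H3K4me3 alone (chr2:180273467-180273715, minus strand). Alb, the gene of serum albumin, stands for promoters outside all lists (chr5:90460620-90460919, plus strand). The centre of the Smarca4 peak with the highest score lay in no annotated gene, upstream of Pou5f1 (chr17:35503481-35503780).
Pou5f1 promoter: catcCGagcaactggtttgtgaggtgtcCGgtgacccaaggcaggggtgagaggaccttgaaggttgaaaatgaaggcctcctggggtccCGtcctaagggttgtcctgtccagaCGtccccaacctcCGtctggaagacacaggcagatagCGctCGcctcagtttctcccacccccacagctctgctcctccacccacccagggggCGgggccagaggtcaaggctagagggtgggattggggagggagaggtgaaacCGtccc
Pax6 promoter: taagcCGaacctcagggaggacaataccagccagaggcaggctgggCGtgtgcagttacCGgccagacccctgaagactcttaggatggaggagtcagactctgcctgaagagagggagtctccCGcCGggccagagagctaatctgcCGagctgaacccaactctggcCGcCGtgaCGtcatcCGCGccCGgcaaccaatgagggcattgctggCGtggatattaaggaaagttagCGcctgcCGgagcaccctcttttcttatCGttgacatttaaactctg
Cables2 promoter: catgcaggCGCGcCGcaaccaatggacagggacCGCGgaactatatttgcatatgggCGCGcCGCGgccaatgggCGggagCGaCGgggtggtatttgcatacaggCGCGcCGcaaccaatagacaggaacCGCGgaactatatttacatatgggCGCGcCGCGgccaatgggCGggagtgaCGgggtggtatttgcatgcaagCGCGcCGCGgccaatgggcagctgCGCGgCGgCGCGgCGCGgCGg
Alb promoter: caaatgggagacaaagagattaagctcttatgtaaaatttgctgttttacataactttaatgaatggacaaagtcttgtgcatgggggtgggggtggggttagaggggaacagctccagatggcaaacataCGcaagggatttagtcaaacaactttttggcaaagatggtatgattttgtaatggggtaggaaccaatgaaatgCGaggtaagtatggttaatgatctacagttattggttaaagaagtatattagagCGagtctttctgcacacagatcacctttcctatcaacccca
Smarca4 peak near Pou5f1: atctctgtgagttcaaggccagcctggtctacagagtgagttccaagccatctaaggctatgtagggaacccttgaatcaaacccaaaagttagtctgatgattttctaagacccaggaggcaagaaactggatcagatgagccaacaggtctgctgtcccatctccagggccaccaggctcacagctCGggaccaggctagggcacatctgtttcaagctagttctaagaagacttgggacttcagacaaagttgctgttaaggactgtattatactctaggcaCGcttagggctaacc

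The whole RefSeq windows of 300 bases held 43 CpG at Cables2, 18 at Pax6, 11 at Pou5f1 and 3 at Alb. The median of 32851 such windows was 7 CpG. The centre of the Smarca4 peak near Pou5f1 held 2. The Cables2 window also held 3 matches to the octamer ATGCAAAT, the word read by POU factors such as Oct4, counted on both strands. At least 1 match was found in 1.74% of the RefSeq windows, and 3 or more in 4 of them. The centre of the Smarca4 peak with the highest score was thus poor in CpG, while the rest of its 2557 bp was not counted. Over all peak centres the medians were 7 CpG for Smarca4 and 6 for Ezh2, while within 1 kb of the transcription start site (TSS) of a protein-coding gene they were 19 and 31. Away from both TSS and gene bodies, as at this peak, the median of Smarca4 centres was 5.

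Smarca4 peaks were many and short. The list held 79014 Smarca4 peaks with a median width of 435 bp (quartiles 288 and 753 bp), and they covered 49.2 Mb. The 6708 Ezh2 peaks were of similar width, with a median of 354 bp (quartiles 260 and 626 bp), but covered 3.65 Mb. The histone marks formed broader islands. H3K27me3 had 22909 islands with a median width of 5800 bp and covered 195 Mb, 7.17% of the assembly, the most of the 5 lists. The widest H3K27me3 island, 260400 bp long, spanned the Hoxc cluster. H3K27ac had 39091 islands (median 3400 bp, 161 Mb covered) and H3K4me3 had 26130 (median 3200 bp, 101 Mb covered). Peaks were called with MACS2 and islands with SICER, and numbers and widths are not comparable between the callers. The paper reports fewer Smarca4 and H3K4me3 peaks in control cells than these lists hold, and the reason was not tested.

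All lists lay near the TSS more often than the same regions would if placed uniformly. The uniform share was computed exactly, by counting the start positions on the chromosome at which a region of the same width would touch the feature. Within 1 kb of a TSS lay 41.7% of H3K4me3 islands (95% Wilson interval 41.1 to 42.3), against 4.47% under uniform placement. For Ezh2 it was 26.5% of peaks against 2.05%, a ratio of 12.9 and the highest of the 5. Smarca4 followed with 22.2% against 2.18%, a ratio of 10.2. H3K27me3 islands reached a TSS in 29.05% of cases against 7.88%. H3K27ac had the lowest ratio, 1.70, with 7.69% of islands against 4.53%. The median distance of an H3K27ac island to the nearest protein-coding TSS was 68.3 kb, whereas the medians of the other lists lay between 10.7 and 12.8 kb.

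Overlap between antibodies was counted at 1 bp or more in both directions of each pair. All but 4 of the 20 directed shares were above uniform placement, and these 4 all involved H3K27ac, with H3K27me3 and with Ezh2. Ezh2 peaks lay in an H3K27me3 island in 63.1% of cases (61.9 to 64.2), 7.40 times the uniform share of 8.53%. They overlapped Smarca4 in 44.5% (43.3 to 45.7), 13.1 times the uniform share of 3.41%, and H3K4me3 in 37.4% against 4.44%. Ezh2 and Smarca4, the catalytic subunits of PRC2 and esBAF, thus met more often than placement alone would give, although 4.21% of Smarca4 peaks had Ezh2. With H3K27ac, Ezh2 peaks overlapped in 3.73% against 6.84%, a ratio of 0.545.

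Smarca4 met H3K4me3 and H3K27me3 about equally often. Of the Smarca4 peaks, 35.0% lay in an H3K4me3 island (uniform 4.54%), 34.55% in an H3K27me3 island (8.89%) and 23.2% in an H3K27ac island (6.90%). With regions under 50% masked, 32.9% lay in H3K4me3 and 37.0% in H3K27me3, so that their order turned. In H3K27ac then lay 17.3% against 1.68%, a ratio of 10.3, above the ratio of 4.19 for H3K27me3. In the other direction, 61.4% of H3K4me3 islands, 47.6% of H3K27me3 islands and 22.85% of H3K27ac islands held a Smarca4 peak. The remodeller was therefore found in islands of the repressive as well as the active marks. A further 25351 Smarca4 peaks, 32.1%, overlapped none of the other lists. Their median score was 52, against 171 for the 2568 peaks that overlapped Ezh2, H3K27me3 and H3K4me3 at once. When regions were placed within 500 kb of their own position, a rule that keeps local gene density, the Smarca4 ratio fell to 1.79 for H3K27me3, and was 3.44 for H3K27ac and 5.37 for H3K4me3.

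The modifications of lysine 27 lay apart. H3K27me3 islands overlapped H3K27ac in 6.02% of cases (5.72 to 6.34) against 15.8% under uniform placement, a ratio of 0.381. H3K4me3 met both: 52.0% of its islands overlapped H3K27ac (uniform 11.1%) and 23.6% overlapped H3K27me3 (uniform 10.3%). Counted in bases, H3K27ac and H3K4me3 without H3K27me3 shared 49.7 Mb, 8.98 times the 5.54 Mb that the product of the separate shares gives. H3K27me3 and H3K4me3 without H3K27ac shared 12.04 Mb, 1.77 times the product. H3K27me3 and H3K27ac without H3K4me3 shared 1.35 Mb, 0.121 times the product of 11.1 Mb. All 3 marks together shared 0.586 Mb, 1.37 times the product, and 8.56 times with regions under 50% masked.

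**Figure D1:**
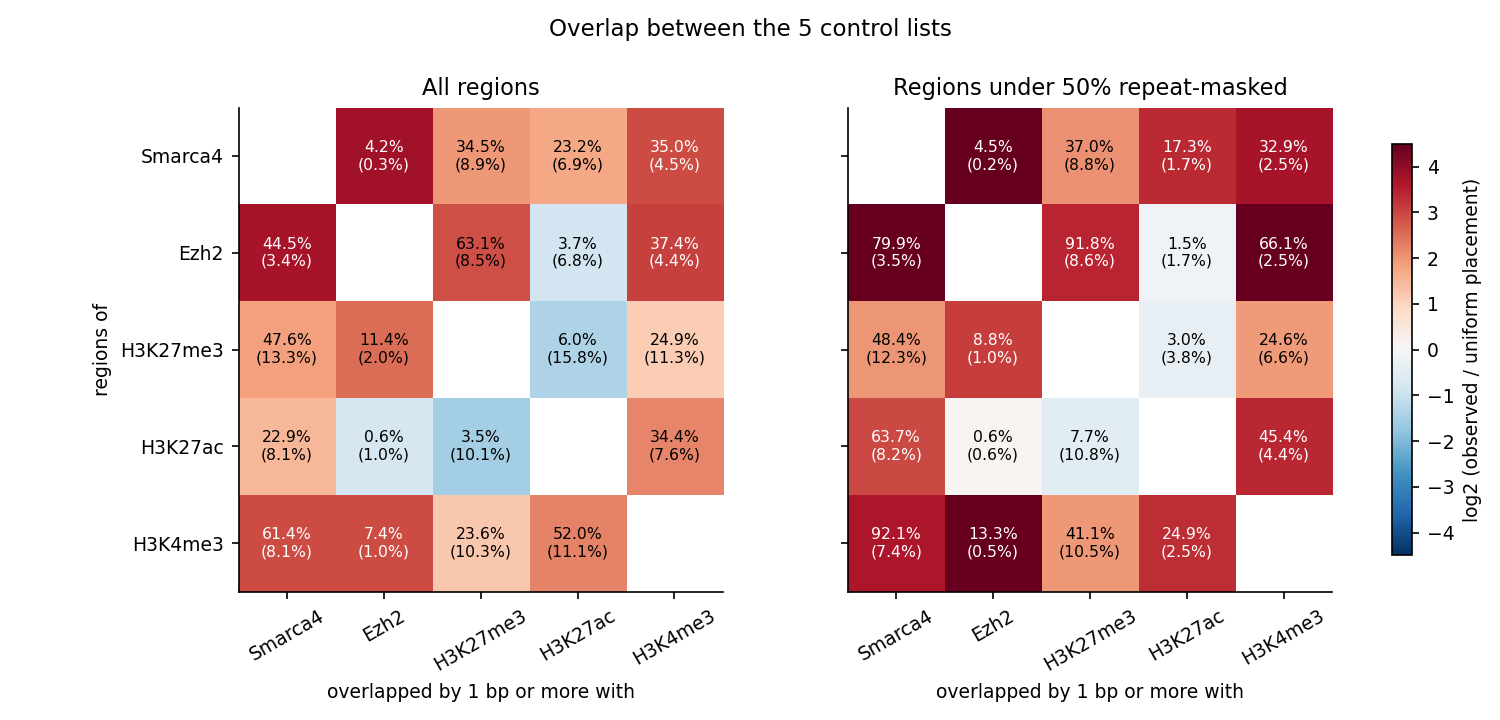
Share of the regions of each list (rows) that overlap each other list (columns) by 1 bp or more, with the share under uniform placement in brackets and the log2 of their ratio as colour. In the left panel, with all regions, the pairs of H3K27ac with H3K27me3 and Ezh2 are blue (below uniform placement), and in the right panel, with regions under 50% repeat-masked, most colours are deeper red and 92.1% of H3K4me3 islands overlap Smarca4.

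The lists also differed in how much repeat sequence they held. Bases in lower case, which mark repeats in the reference, make up 36.4% of it, and regions with 50% or more of such bases are called masked here. This applied to 4.07% of H3K27me3 islands and 9.52% of Smarca4 peaks, but to 45.5% of H3K4me3 islands, 45.9% of Ezh2 peaks and 79.1% of H3K27ac islands. The 3 antibodies with a high share were those of the authors' laboratory. The same counts follow for masked and other regions.

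H3K4me3 islands differed between the masked and the other regions. Of the 14228 H3K4me3 islands under 50% masked, 76.0% lay within 1 kb of a TSS, 92.3% held a Smarca4 peak, 41.4% overlapped H3K27me3 and 26.5% overlapped H3K27ac. Of the 11902 masked islands, 0.647% lay near a TSS, 24.4% held Smarca4, 2.23% overlapped H3K27me3 and 82.5% overlapped H3K27ac. The median −log10 p of the islands was 98.7 in the first part and 27.8 in the second. Overlap with H3K27ac was thus more frequent among the masked islands, and overlap with Smarca4 and H3K27me3 among the others. The 49.7 Mb shared by H3K27ac and H3K4me3 dropped to 12.8 Mb when masked regions were left out.

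The Ezh2 list divided in the same way. Among its 3626 peaks under 50% masked, 91.9% lay in an H3K27me3 island, 79.9% overlapped Smarca4, 66.2% overlapped H3K4me3 and 47.8% lay within 1 kb of a TSS. Among the 3082 masked peaks, 29.2% lay in an H3K27me3 island, 2.79% overlapped Smarca4, 3.63% overlapped H3K4me3 and 1.52% lay near a TSS. The central 300 bases held a median of 26 CpG in the first group and 0 in the second, of which 52.0% held no CpG at all. Peaks of the first group thus lay in the CpG-rich DNA that PRC2 is known to occupy. For H3K27ac, 65.9% of the 8189 islands under 50% masked held Smarca4 and 32.9% lay near a TSS, against 11.4% and 0.994% of the 30902 masked ones.

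Restricted to regions under 50% masked in every list, H3K4me3 islands held Smarca4 in 92.1% (uniform 7.42%) and Ezh2 peaks lay in H3K27me3 islands in 91.8% (uniform 8.62%). Avoidance between the marks of lysine 27 became smaller but kept its side, with 2.96% of H3K27me3 islands overlapping H3K27ac against 3.82%, a ratio of 0.775. H3K27ac islands met Ezh2 in 0.611% against 0.568%, a ratio of 1.08 in place of 0.599 with all regions, so that the lower overlap of H3K27ac islands with Ezh2 did not hold there.

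Smarca4 peaks were stronger at promoters than elsewhere. Within 1 kb of a TSS lay 17578 peaks with a median score of 126 (quartiles 64 and 224), while 34111 peaks in gene bodies and 27325 distal peaks both had a median of 57. Scores are those that MACS2 gave the peak, and grow with its significance. At the TSS, 83.1% of peaks lay in an H3K4me3 island, 43.5% in H3K27me3, 22.2% in H3K27ac and 10.55% overlapped Ezh2. Distal peaks had H3K27me3 in 31.3%, H3K27ac in 30.7% and H3K4me3 in 18.9% of cases, and 36.7% had no histone mark. With regions under 50% masked, distal peaks had H3K27me3 in 35.85%, H3K27ac in 19.16% and H3K4me3 in 11.02%. The near equality of H3K27me3 and H3K27ac at distal peaks thus did not hold there. Peaks in gene bodies lacked a mark most often, in 42.8%. In gene bodies 23.0% of the peaks lay in H3K4me3, so that both H3K4me3 and H3K27me3 accompanied Smarca4 at all 3 places, H3K4me3 most often at the TSS.

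Ordered by score, the top decile of Smarca4 peaks (202 to 1613) lay in H3K4me3 in 80.2%, in H3K27me3 in 48.3% and overlapped Ezh2 in 14.4%. In the bottom decile (13 to 32) these shares were 19.1%, 32.4% and 0.721%. Ezh2 peaks did not follow their score in one direction. In H3K27me3 islands lay 97.5% of the top decile of Ezh2 peaks (208 to 1370), 46.2% of the sixth decile and 70.0% of the bottom decile (13 to 34). The repeat-masked share moved the opposite way, with 11.8%, 56.2% and 36.4% in these deciles. Smarca4 overlap of Ezh2 peaks was 89.0%, 29.5% and 47.9% in them. The weakest Ezh2 calls therefore resembled the strong ones more than the middle ones did. Width moves with the score, with medians of 1256 bp in the strongest and 284 bp in the bottom decile of Ezh2 peaks, and wider peaks touch more regions.

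**Figure D2:**
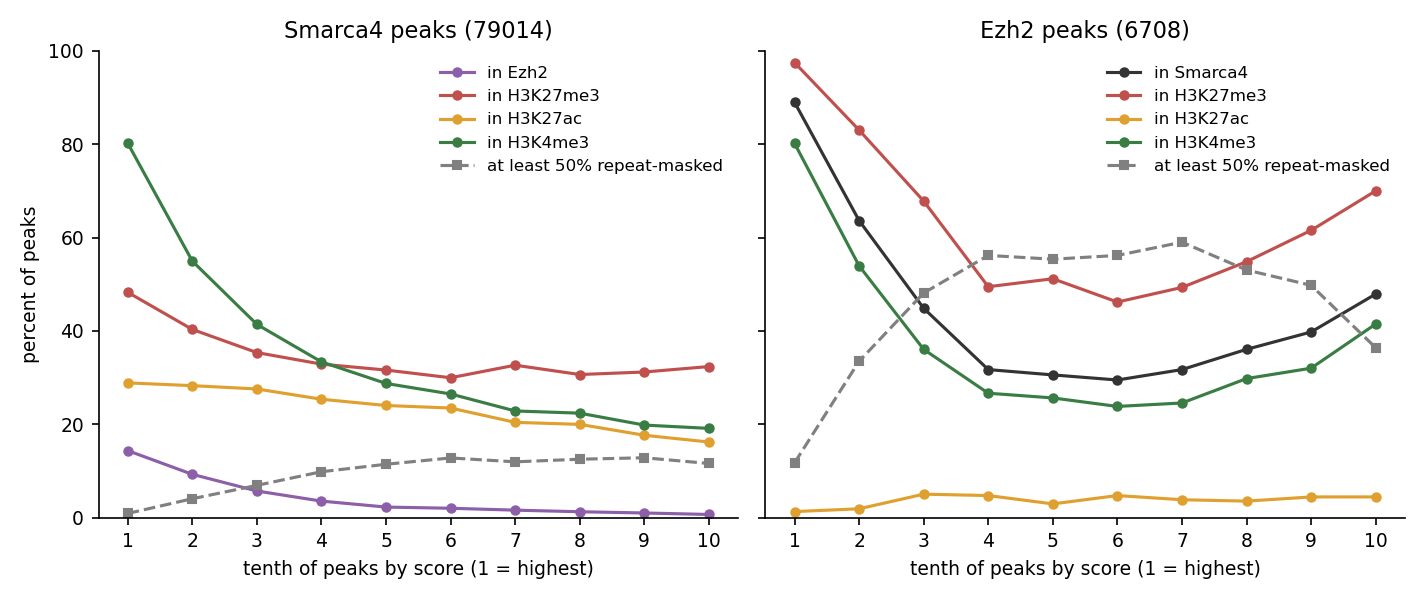
Percent of Smarca4 peaks (left) and Ezh2 peaks (right) in each decile of the score, from the highest (1) to the lowest (10), that overlap the other lists or are at least 50% repeat-masked. For Smarca4 the H3K4me3 line falls from 80.2% to 19.1%, and for Ezh2 the H3K27me3 line runs from 97.5% down to 46.2% in the sixth decile and up to 70.0% in the last.

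Short sequence words in the central 500 bp of Smarca4 peaks differed between places. They were counted on both strands and compared with windows of the same length 10 kb to each side. Nrf1 is a factor of housekeeping promoters, and its word GCGCATGCG was found in 1.46% of peaks at the TSS against 0.128% of their flanks. Among distal peaks without a histone mark, ATGCAAAT was found in 4.03% (3.66 to 4.43) against 2.66%. At the TSS the octamer was found in 1.21% against 2.53%, below the flanks. Esrrb is an orphan nuclear receptor of naive ESC, and its word TCAAGGTCA was found in 3.44% of distal peaks with H3K27ac and without H3K4me3 against 1.84%. The Esrrb word was below the flanks at the TSS (1.00% against 1.69%) and at distal peaks with H3K4me3 (0.716% against 1.08%). At distal peaks with H3K27me3 it differed from the flanks by no more than counting error (1.58%, 1.33 to 1.86, against 1.77%). In distal peaks with H3K4me3 the octamer was below the flanks as well (2.71% against 4.41%). The Klf word CCACACCC was found in 7.47% of all peaks against 4.98%. The CTCF consensus was found in 0.871% of all peaks against 0.509%. No word contains another, a match is not a binding site, and the flanks were not matched for GC content.

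Of the 21938 protein-coding promoters (TSS ± 1 kb, TSS taken as the gene start), Smarca4 overlapped 62.5%, H3K4me3 56.6%, H3K27me3 34.9%, H3K27ac 16.0% and Ezh2 7.13%. H3K4me3 and H3K27me3 together were found at 21.2%, H3K4me3 and H3K27ac at 14.7%, H3K4me3 without H3K27me3 at 35.3% and H3K27me3 without H3K4me3 at 13.7%. The remaining 26.6% of promoters overlapped none of the lists. These shares are the background for the gene lists below. Windows of 3127 promoters, 14.3%, overlapped that of another gene, as at divergent pairs, and such genes share their marks.

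Of the 32 possible combinations of the 5 lists, 27 were found, and 7 of them held over 1000 promoters each. The largest was none of the lists with 5839 promoters, 3.22 times the 1815 that the product of the 5 separate shares gives. Smarca4 with H3K4me3 alone followed with 4386 promoters, close to the product (ratio 1.11). Smarca4 with H3K27me3 and H3K4me3 was found at 2925 promoters and Smarca4 with H3K27ac and H3K4me3 at 2782, 1.38 and 3.72 times the product. The largest excess among these 7 was that of Smarca4, Ezh2, H3K27me3 and H3K4me3, with 1333 promoters and a ratio of 8.22. H3K27me3 alone was found at 1498 promoters and Smarca4 with H3K27me3 at 1291. Single lists other than H3K27me3 were rare: Smarca4 alone was found at 433 promoters (ratio 0.143), H3K4me3 alone at 428 (0.181) and H3K27ac alone at 158 (0.458). The marks of a promoter thus came as sets, in which Smarca4 and H3K4me3 went together.

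**Figure D3:**
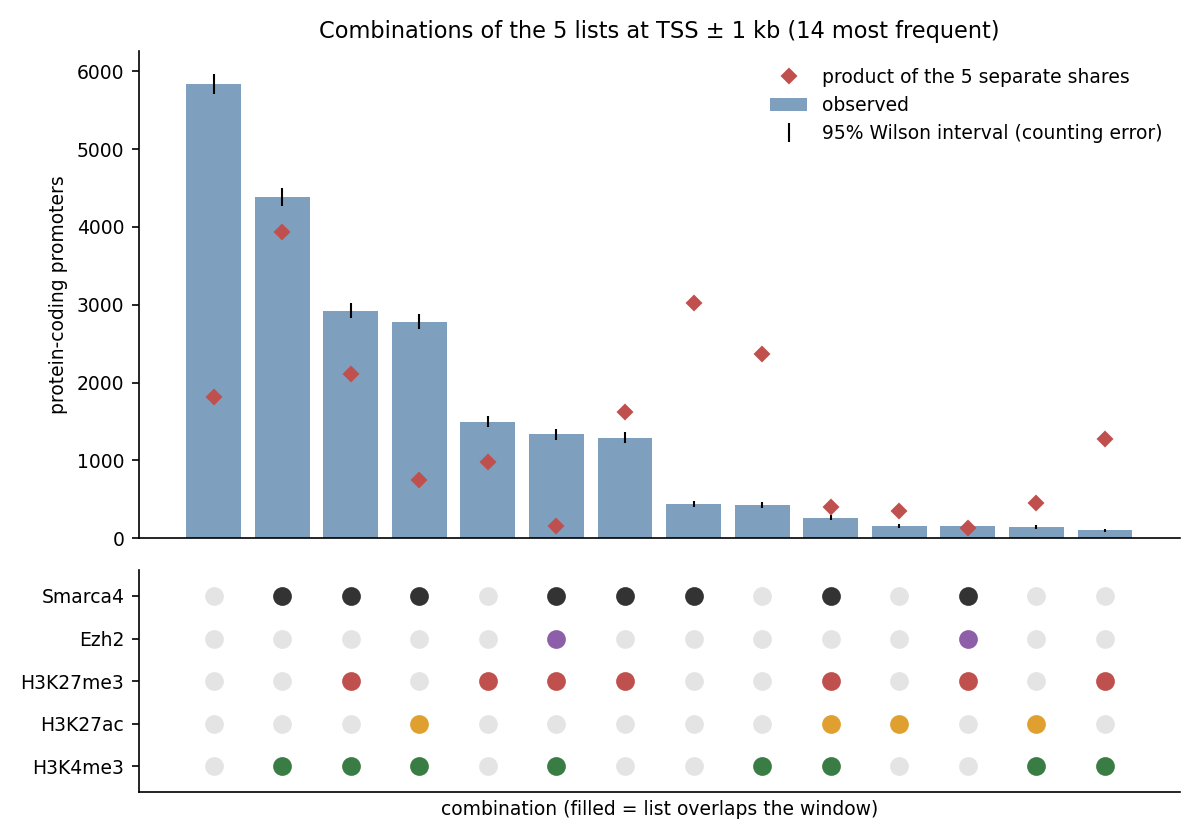
Number of protein-coding promoters with each of the 14 most frequent combinations of lists (bars, with 95% Wilson intervals for counting error) beside the number by the product of the 5 separate shares (diamonds). The dot matrix shows which lists overlap the window, and the bar of Smarca4, Ezh2, H3K27me3 and H3K4me3 stands at 1333 against 162.

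Promoters with Ezh2 were the most uniform. Of 1564, 98.3% had H3K27me3 (97.5 to 98.8), 97.3% had Smarca4 (96.4 to 98.0), 88.0% had H3K4me3 (86.3 to 89.6) and 1.79% had H3K27ac (1.24 to 2.58). Of 12410 promoters with H3K4me3, 94.4% had Smarca4, and of 3501 with H3K27ac, 92.0% had H3K4me3 and 90.8% had Smarca4. Pooled over all promoters, H3K27me3 and H3K4me3 met nearly as if independent of each other. Of the promoters with H3K27me3, 60.8% had H3K4me3 against 56.6% of all (ratio 1.07). Promoters of unlike CpG content are pooled here, and shares by CpG content follow below. H3K27ac was found at 4.29% of promoters with H3K27me3 (3.86 to 4.77) against 16.0% of all.

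By histone state, Smarca4 was most frequent at bivalent promoters. Of the 4367 promoters with H3K4me3 and H3K27me3 and without H3K27ac, 97.5% had Smarca4, with a median score of 209 (quartiles 136 and 311), and 30.7% had Ezh2. Of the 2932 with H3K4me3 and H3K27ac, 95.1% had Smarca4 (median 181) and 0.273% had Ezh2. Of the 4823 with H3K4me3 alone, 91.1% had Smarca4 (median 149), and of the 2966 with H3K27me3 alone, 48.7% had it (median 93). Among the 6281 promoters with no histone mark it was 6.89% (median 71). The 288 promoters with all 3 marks had Smarca4 in 97.2% and the highest median score, 265. Among promoters with exactly Smarca4, Ezh2, H3K27me3 and H3K4me3, the highest Smarca4 scores were those of Sfrp1 (925), Cabp1 (892) and Ppp1r9b (890). Among promoters with exactly Smarca4, H3K27ac and H3K4me3 they were those of Sntb2 (1259), Pou5f1 (983) and Agpat5 (955). Quartiles of neighbouring states overlapped, and since the lists come from a population of cells, marks at 1 promoter need not lie in the same cells.

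Ezh2 was found mainly where H3K27me3 was broad. It overlapped 0.855% of the 234 promoters whose H3K27me3 island was up to 2000 bp wide, 12.8% of the 2297 with islands between 5000 and 10000 bp, and 38.2% of the 1684 with islands over 20000 bp. H3K4me3 hardly moved with this width up to 20000 bp and was lower above, with 61.5%, 61.4% and 56.9% in the same classes. Smarca4 was found at 71.4%, 77.8% and 79.3%. H3K27ac went the other way, from 13.2% at the narrow to 1.9% at the broadest islands. The median CpG ratio of these promoters differed little between the classes (0.609, 0.589 and 0.597).

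CpG content separated the combinations, although no list was chosen by sequence. The CpG ratio is the number of CpG observed over that given by the C and G content, here in 1 kb around the TSS, and its median over all promoters was 0.552 (quartiles 0.218 and 0.768). Promoters with Smarca4, H3K27ac and H3K4me3 had a median of 0.803 (quartiles 0.688 and 0.898), well above the 0.33 of Pou5f1, shown as their example. Promoters with Smarca4 and H3K4me3 alone had 0.746, those with Ezh2 and H3K27me3 in addition 0.749, and those with H3K27me3 and without Ezh2 0.703. Without H3K4me3 the medians were 0.624 with Smarca4, Ezh2 and H3K27me3, 0.427 with Smarca4 and H3K27me3, 0.215 with H3K27me3 alone and 0.154 with none of the lists. With H3K4me3 but without Smarca4 they were 0.556 for H3K4me3 alone, 0.484 with H3K27ac and 0.473 with H3K27me3. Among combinations with at least 100 promoters, the medians above 0.7 were thus those of combinations that held both Smarca4 and H3K4me3, whether active or bivalent.

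**Figure D4:**
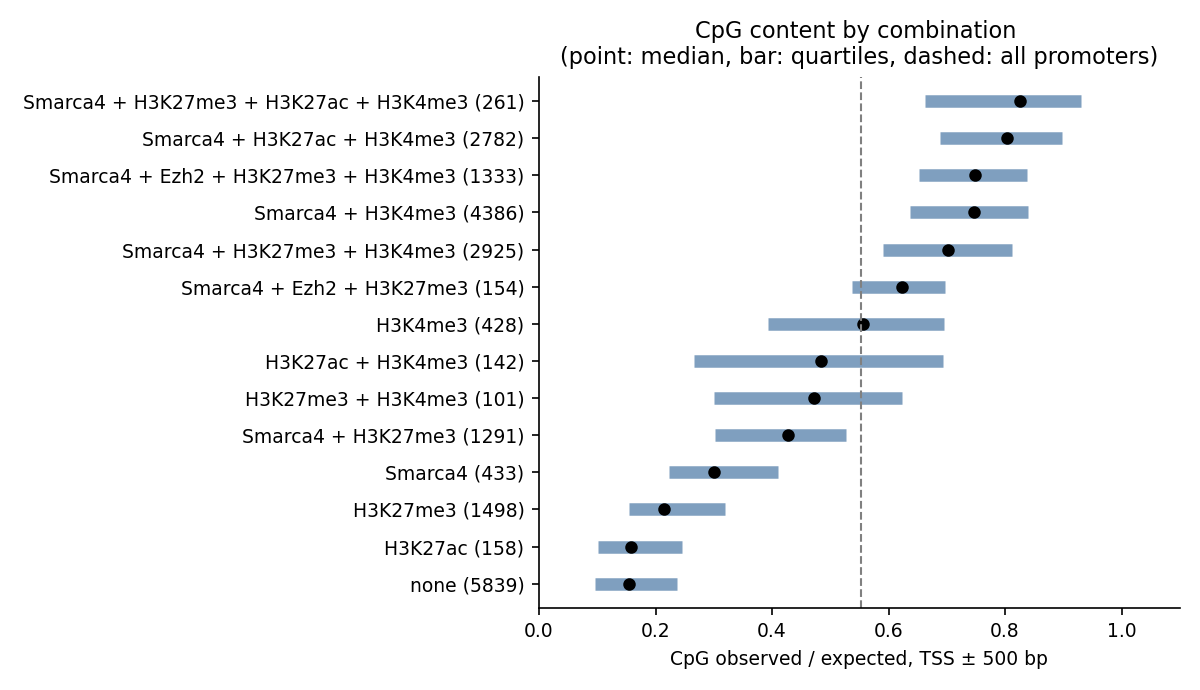
CpG observed over expected in TSS ± 500 bp for each combination with at least 100 promoters (number in brackets), as median (point) and quartiles (bar), with the median of all promoters, 0.552, as dashed line. All combinations of Smarca4 with H3K4me3 lie to the right of the line, and promoters with none of the lists lie at the far left with 0.154.

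Over deciles of the CpG ratio, H3K4me3 went from 99.9% of promoters in the highest decile to 1.92% in the lowest, and Smarca4 from 99.0% to 2.60%. H3K27ac was found at 40.7% in the highest decile and at 15.3% in the fifth. H3K27me3 peaked in the middle, with 31.7% in the highest, 54.6% in the sixth and 9.12% in the lowest decile. The bivalent pair was most frequent in the fifth decile, at 38.5%. Ezh2 was found at 9.62% in the highest and at 13.5% in the fourth decile. H3K27me3 and Ezh2 were thus more frequent at intermediate than at the highest CpG content. The median Smarca4 score of bound promoters was 243 in the highest and 80 in the lowest decile.

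The cell type was checked by promoters of marker genes. Of 10 core pluripotency genes, 9 had Smarca4, 9 had H3K4me3, 7 had H3K27ac and 1 had H3K27me3. Pou5f1 (Oct4), the POU factor of the pluripotency circuit, had the strongest Smarca4 signal among them with a score of 983, in an H3K27ac island of 31600 bp. Nanog (score 144), Sox2 (314), Sall4 (311), Utf1 (480), Zfp42 (127) and Dppa4 (57) had the same combination of Smarca4, H3K27ac and H3K4me3. Lin28a, an RNA-binding protein that blocks let-7 maturation, had Smarca4 (476) and H3K4me3. Dnmt3b, a de novo DNA methyltransferase, was bivalent with Smarca4 (481) and a weak Ezh2 peak (44). Trim28 had none at the gene start used, but Smarca4, H3K27ac and H3K4me3 at another annotated transcript start. Lin28a gained H3K27ac when all its transcript starts were used.

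Naive pluripotency genes were more mixed. Of 15, 14 had Smarca4 and 13 had H3K4me3, but 8 had H3K27me3 and 4 had H3K27ac. Klf2, Klf5, Stat3 and Tdgf1 carried Smarca4, H3K27ac and H3K4me3, with Smarca4 scores of 380, 758, 489 and 124. Klf4, Tbx3, Prdm14, Dppa3, Lefty1 and Lefty2 were bivalent with Smarca4 and without Ezh2. The H3K27me3 island was 40000 bp wide at Tbx3 and 1800 bp at Klf4. Esrrb had H3K27me3 alone at its gene start, whereas over all its transcript starts it had all 5 lists. None of the 15 had an Ezh2 peak at the gene start.

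Markers of other cell types were counted in the same way. Of 12 fibroblast markers, 0 had H3K27ac, 3 had H3K4me3, 8 had H3K27me3 and 4 had no list. The collagen genes Col1a1 and Col1a2 had Smarca4 and H3K27me3, while Twist1, Twist2 and Prrx1, transcription factors of mesenchyme, were bivalent with Ezh2 and Smarca4. Of 11 trophoblast regulators 0 had H3K27ac, 10 had H3K27me3 and 5 had Ezh2. H3K27ac was at 16.0% of all promoters, so that none among so few genes is near the background. The 4 of 15 naive pluripotency genes are near it as well, while the 7 of 10 core pluripotency genes are above it.

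Subunits of both complexes lay in active chromatin. The 12 genes listed for esBAF include Brd9, which is a subunit of the noncanonical BAF complex. All 12 had Smarca4, 11 had H3K4me3, 8 had H3K27ac and 0 had H3K27me3. Smarca4 itself had Smarca4 at a score of 116 and Smarcb1, the subunit targeted by the uninduced shRNA, at 130. Ss18 (400) and Smarce1 (308) were the strongest. Of 10 neural and alternative BAF genes, such as Actl6b, which replaces Actl6a in neurons, 10 had Smarca4 and 6 had H3K27me3. All 12 PRC2 genes had Smarca4 and H3K4me3, and 10 had H3K27ac, among them Ezh2 (333), Eed (242) and Suz12 (301). Phf19, a PRC2 partner that binds methylated lysine 36, was the one PRC2 gene with Ezh2 (88) and H3K27me3. Of 16 PRC1 genes 9 had H3K27me3 and all had H3K4me3. Of 13 trithorax and H3K27 demethylase genes, all had Smarca4 and H3K4me3 and 2 had H3K27me3.

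Developmental regulators carried PRC2. All 16 neural regulators had H3K27me3 and Smarca4, 15 had an Ezh2 peak, 14 had H3K4me3 and 0 had H3K27ac. Emx2, a homeobox factor of the cortex, had the highest Ezh2 score of the list (1121), and Sox1, an early neural factor, the highest Smarca4 score (434). Pax6, whose promoter is shown above, had Ezh2 (123) and Smarca4 (79) in an island of 43600 bp and no H3K4me3 at its gene start. Otx2, a head and forebrain factor, had Smarca4 (229) and Ezh2 (91) and likewise lacked H3K4me3, but both genes had it at another transcript start. Neurod1 was the one without Ezh2. Of 16 mesoderm and endoderm regulators 16 had H3K27me3, 12 had Ezh2, 13 had Smarca4 and 10 had H3K4me3. Foxa2 (734), Eomes (700) and Hand2 (685), regulators of endoderm, mesendoderm and heart, had the highest Ezh2 scores. Gata4 had H3K27me3 alone, in an island of 51400 bp, and Smarca4 and Ezh2 at another transcript start. Hand1, Mesp1, Pdx1 and Gata4 lacked Ezh2 at the gene start.

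**Figure D5:**
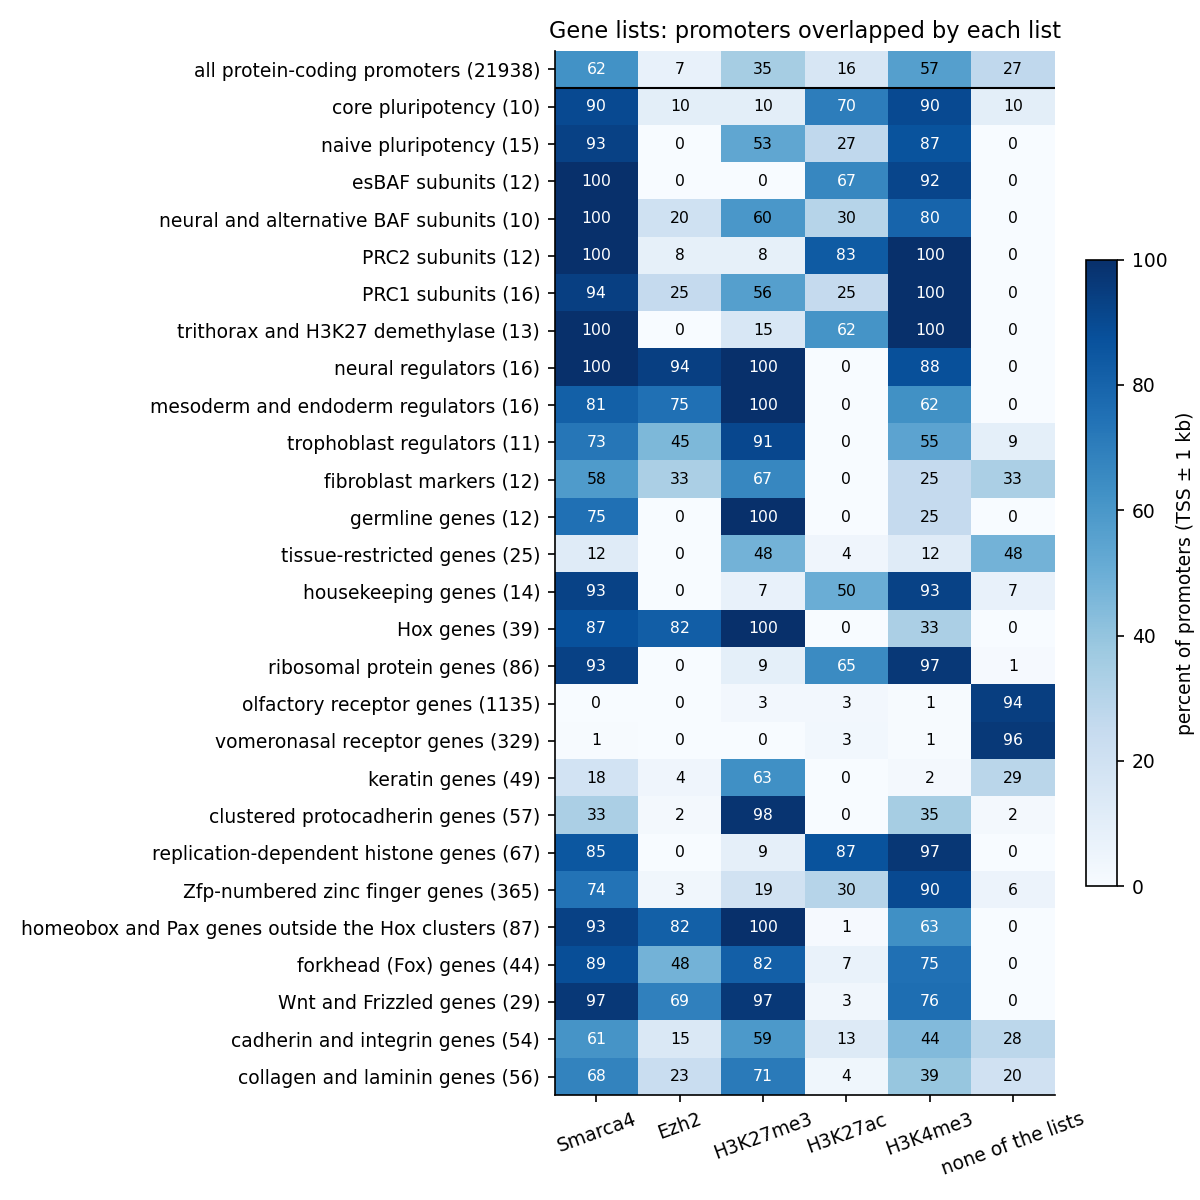
Percent of the promoters of each gene list (number in brackets) that each control list overlaps, or that none overlaps, with all 21938 protein-coding promoters in the top row. Neural regulators and Hox genes are at 100 for H3K27me3, and olfactory and vomeronasal receptor genes are at 94 and 96 for none of the lists.

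Gene families showed the whole range. All 39 Hox genes had H3K27me3, 32 had Ezh2, 34 had Smarca4 and 13 had H3K4me3. All 87 homeobox and Pax genes outside the Hox clusters had H3K27me3 and 71 had Ezh2. Of 29 Wnt and Frizzled genes, 28 had H3K27me3 and 20 had Ezh2, and of 44 forkhead genes 36 had H3K27me3 and 21 had Ezh2. Clustered protocadherins, cell-surface identity genes of neurons, had H3K27me3 at 56 of 57 promoters but Ezh2 at 1. Germline genes were similar, with H3K27me3 at 12 of 12 and Ezh2 at 0. Over all promoters 20.1% of those with H3K27me3 had an Ezh2 peak, so that a lack of one was common outside these families too. Keratin genes had H3K27me3 at 31 of 49. Cadherin and integrin genes had H3K27me3 at 32 of 54 and collagen and laminin genes at 40 of 56.

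Ribosomal protein, histone, zinc finger and housekeeping genes mostly had Smarca4 and H3K4me3, while their share with H3K27ac differed. Ribosomal protein genes had Smarca4 at 80 of 86 promoters, H3K4me3 at 83, H3K27ac at 56 and Ezh2 at 0. Replication-dependent histone genes had H3K27ac at 58 of 67, Smarca4 at 57 and H3K4me3 at 65. Zfp-numbered zinc finger genes had Smarca4 at 270, H3K4me3 at 328 and H3K27ac at 109 of 365. Of the Zfp-numbered genes 71 had H3K27me3. Of 14 housekeeping genes 13 had Smarca4, 13 had H3K4me3, 7 had H3K27ac and 1 had H3K27me3. Actb, Gapdh, Hprt, Sdha and Tbp were among those without H3K27ac. Gapdh had Smarca4 and H3K4me3 at a CpG ratio of 0.286, low for such promoters. Ywhaz had none of the lists at the gene start used and Smarca4, H3K27ac and H3K4me3 at another transcript start. At the other end, 1072 of 1135 olfactory and 317 of 329 vomeronasal receptor promoters had none of the lists, with median CpG ratios of 0.106 and 0.0914. Of 25 tissue-restricted genes 12 had none, among them Alb, Afp, Cd3e and Ttr, and 12 had H3K27me3, among them Acta1, Myh6, Gfap and Apoa1.

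The regions with the highest values named both programmes. The Smarca4 peak with the highest score, 1613, lay at chr17:35502353-35504909, 1109 bp upstream of the Pou5f1 start, and overlapped H3K27ac and H3K4me3. The next 2 peaks lay on the starts of Scrt2 (1407), a neural zinc finger repressor with H3K27me3 and H3K4me3, and Cables2 (1306). An Ezh2 peak with a score of 1370 lay in the body of Zfhx3, 760809 bp from its start. It overlapped Smarca4, H3K27me3, H3K4me3 and also H3K27ac. Another, with 1258, lay 1898 bp from the Nr5a1 start and overlapped Smarca4, H3K27me3 and H3K4me3 but not H3K27ac. Of the islands with a p-value listed as 0, the broadest of H3K27me3 lay on the Hoxc cluster, on the imprinted genes Cdkn1c, Slc22a18 and Phlda2, and on the Hoxa cluster. Those of H3K27ac included the start of Tet2 (47000 bp) and 2 islands on X that were over 90% repeat-masked. The broadest of H3K4me3 (41000 bp) lay 7996 bp from the Tet1 start. Tet1 and Tet2 encode enzymes that oxidise methylated cytosine.

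Chromosomes differed in density. Leaving out Y, Smarca4 peaks were most dense on chromosome 11, at 57.25 per Mb, and least dense on X, at 9.16 per Mb. H3K27me3 islands followed with 15.2 and 4.27 per Mb. Protein-coding genes were at 13.4 and 5.54 per Mb on these chromosomes. Smarca4 did not follow gene density closely. It was at 35.6 per Mb on chromosome 7, with 13.9 genes per Mb, and at 24.8 on chromosome 12, with 5.35. H3K27ac was less dense on chromosome 11 than on X, with 14.8 and 18.4 islands per Mb. H3K4me3 was between 8.58 and 11.5 per Mb on these 20 chromosomes. Ezh2 peaks and H3K27ac islands were most dense on chromosome 8, at 4.42 and 18.8 per Mb. Sfrp1, Sntb2 and Agpat5, named above for their Smarca4 scores, lie on that chromosome.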

How the data were processed

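The ChIP-seq lists of the 5 control samples were grouped by their labels. The authors trimmed reads with Trim Galore, aligned them with Bowtie2 to mm10 and filtered them with SAMtools 1.9 (names from the submitters' processing notes). They called Smarca4 and Ezh2 peaks with MACS2 and histone islands with SICER. By the methods the calls were made against input, whereas the peak names and another passage of the study name IgG, so the background is not certain. Each deposited peak has a MACS2 score, in whole numbers from 13 up. Each deposited island has a SICER p-value, at most 9.96e-06 in the H3K27ac list and 9.92e-11 in those of H3K4me3 and H3K27me3 (9.81e-11 in the latter). Neither value is scaled between libraries, and the files give no read numbers.

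Lines on other sequences than the 19 autosomes, X and Y were left out (33 for Smarca4, 21 for Ezh2), and the end of an island was taken to belong to it. TSS came from GENCODE M21 on GRCm38, an earlier release than the authors used. Overlaps, exact uniform placement, promoter combinations and CpG ratios were computed in Python 3.11.15 with numpy 2.4.6 and pandas 2.3.3, and figures drawn with matplotlib 3.10.9. The functions were tested on simulated regions with known answers. No test was made, as there was 1 library per antibody, and 95% Wilson intervals cover counting error only. Alternatives were a stricter threshold (a minimum score of 50 for peaks, and a minimum −log10 p of 20 for islands or 10 for those of H3K27ac), regions under 50% repeat-masked, other overlap and placement rules, other TSS windows and chromosomes left out. Promoter sequences came from RefSeq (GRCm38.p6), whose table matched 16539 protein-coding symbols (75.4%). The members and gene lists were chosen with earlier results of these data known. Genes named are all members of the lists on pluripotency, esBAF, PRC2, neural, mesoderm and endoderm, fibroblast, housekeeping and tissue-restricted genes, the 3 strongest regions of each list, and the 3 strongest genes of a combination. Members of other lists were counted. The lists of doxycycline-treated cells were not used here. Some items are not reported here.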

Additional observations from a re-analysis of the deposited data

How the results depend on the processing

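No paired analysis was possible because each antibody had 1 control library, and no replicate could be left out. Of 140 observed-to-uniform ratios recomputed under 7 alternatives, 139 stayed on the same side of 1. The exception was H3K27ac islands with Ezh2 (1.08 with regions under 50% repeat-masked). In bases, the ratio to the product turned for all 3 marks together (1.37 with all regions, 0.872 with the stricter threshold). It also turned for H3K27me3 alone (1.025 with all regions, 0.964 under 50% masked).

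Counts moved by over 1.5 times as follows. With the stricter threshold, which keeps fewer regions, Smarca4 peaks overlapped H3K27me3 in 16970 and H3K27ac in 10027 cases, Ezh2 peaks overlapped H3K27ac in 107, H3K27me3 islands overlapped H3K27ac in 414, and H3K27ac islands overlapped H3K4me3 in 8591. Promoters with H3K27ac were then 2039, those with H3K4me3 in addition 1846, and those with exactly Smarca4, H3K27ac and H3K4me3 1589, while 20708 Smarca4 peaks lay in gene bodies and 16907 were distal. Under 50% masked, H3K27ac overlapped 54 Ezh2 peaks and 651 H3K27me3 islands, and 3714 H3K27ac islands overlapped H3K4me3, with 12.8 Mb in common. H3K27me3 and H3K27ac shared 0.450 Mb (stricter) and 0.619 Mb (under 50% masked). With at least 50% of the region covered, 2036 Smarca4 peaks overlapped Ezh2, and 239 and 866 H3K27me3 islands overlapped H3K27ac and H3K4me3. By the centre of the region the last 2 were 303 and 2029. With 5 kb as the limit, 29090 Smarca4 peaks lay at a TSS. The other 137 recomputed values of comparisons were within 1.5 times. Among the further shares, ratios and medians recomputed, 241 moved by more than the allowance for counting error, 123 did not, and 3 changed side as given above. The lists hold no read numbers, and regions below the threshold of the callers at the depth reached cannot be told apart from absent ones.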
